A study of Drosophila melanogaster with 12 samples.

Results

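The cytochrome P450 genes of *Drosophila melanogaster* were taken as all genes of the deposited tables whose symbol starts with Cyp, a family number, a subfamily letter and a gene number. This rule found 83 of 17208 genes, and the same 83 in the eye disc table and in the wing disc table. A gene was described as measured where its mean normalized count was at least 10 in a tissue, which held for 48 of the 83 genes in eye discs and for 55 in wing discs. RNA had been sequenced from discs of larvae in the last instar, pooled for each library from 40 discs of the eye and antenna or from 30 of the wing. Eye discs came from GMR-Gal4 > w1118 controls (3 libraries) and from GMR-Gal4 > UAS-*fuss* larvae (3 libraries), and wing discs from nub-Gal4 > w1118 controls (3 libraries) and nub-Gal4 > UAS-*fuss* larvae (3 libraries). All larvae thus carried a Gal4 driver. GMR-Gal4 drives expression in the retina once the morphogenetic furrow has passed, and nub-Gal4 in the wing pouch, so that each pool also held disc tissue outside the driver's domain. A source label of the eye libraries names nub-Gal4, whereas their genotype label and the paper name GMR-Gal4.

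Each value given here is the authors' mean normalized count, 1 value for each gene and tissue, which pools the control and the *fuss* overexpressing libraries. The genotypes cannot be told apart in these means, and no comparison of *fuss* overexpression with control was made. The values have no replicate error, and the depth of single libraries is unknown, so that differences between tissues are described without a test. Tissue and driver line cannot be told apart either, and the sequencing lanes were unevenly divided between the tissues. Eye control, eye *fuss* overexpression and wing control libraries were each 1 on lane 5 and 2 on lane 6. All 3 wing *fuss* overexpression libraries were on lane 5. The means of all genes summed to 29977881 in eye discs and 34175754 in wing discs, and levels were set side by side between the separately normalized tables as a share of 1000000 of these sums (ppm).

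Cytochrome P450 enzymes are haem proteins that insert an oxygen atom into steroids, fatty acids, hydrocarbons and foreign compounds. Insect P450 genes fall into 4 clans. The CYP2 clan and the mitochondrial clan hold most enzymes of ecdysteroid synthesis and breakdown. The CYP3 clan, with the large Cyp6 and Cyp9 families, is best known for the breakdown of plant toxins and insecticides, and the CYP4 clan for the oxidation of fatty acids and the synthesis of cuticular hydrocarbons. Enzymes of the endoplasmic reticulum take electrons from the reductase Cpr and from cytochrome b5, and mitochondrial enzymes from the ferredoxin reductase encoded by *dare* and from ferredoxins.

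P450 genes were for the most part weakly expressed in both kinds of disc. The measured members had a median mean normalized count of 77.2 in eye discs and 57.8 in wing discs, beside 918 and 1089 for all measured protein-coding genes of the same tissue, without correction for length. Only 3 members in eye discs and 4 in wing discs lay above that median of the protein-coding genes. In eye discs 3 members had a mean normalized count of at least 1000, 18 lay between 100 and 1000, 27 between 10 and 100, 27 between 1 and 10 and 8 below 1. In wing discs these numbers were 4, 18, 33, 19 and 9. The share of measured members was 57.8% in eye discs and 66.3% in wing discs, beside 69.5% and 67.1% of the protein-coding genes of the tables. All 83 members together made up 345 ppm of the summed level in eye discs and 402 ppm in wing discs.

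**Figure D1:**
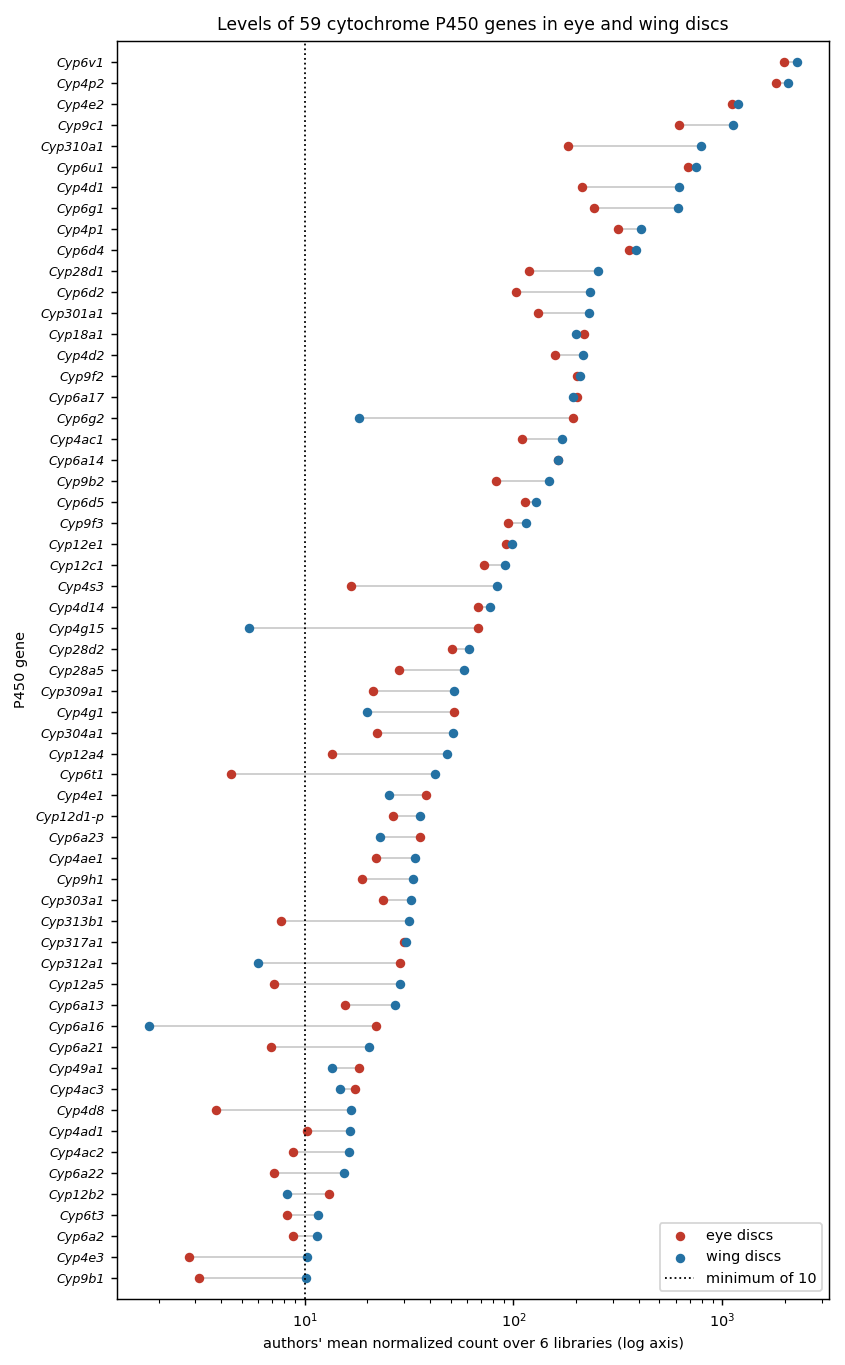
Authors' mean normalized count (log axis) of the 59 P450 genes with a mean of at least 10 in eye discs (red) or wing discs (blue), each point a mean over 6 libraries with no error available. *Cyp6v1*, *Cyp4p2* and *Cyp4e2* lie above 1000 in both tissues, and the red and blue points of *Cyp6g2*, *Cyp4g15*, *Cyp6a16* and *Cyp6t1* lie farthest apart.

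The same few genes carried most of the P450 RNA in both tissues. Per kilobase of coding length, used to set levels of different genes side by side, *Cyp6v1* (FBgn0031126, BDGP6.54 chromosome X, 20657122 to 20661425) ranked highest, with a mean normalized count per coding kilobase of 1260 in eye discs and 1460 in wing discs. *Cyp4p2* (FBgn0033395, chromosome 2R from 9237512 to 9239831) followed with 1155 in eye discs and 1324 in wing discs on the same scale. *Cyp4e2* (FBgn0014469, chromosome 2R from 8444560 to 8447164) came next, at 704 in eye discs and 753 in wing discs. These 3 genes had nearly the same level in ppm in both tissues, and their wing to eye ratios were 1.02, 1.01 and 0.94. The order depended on the length used. Per kilobase of the longest transcript, *Cyp4p2* (1014 in eye discs and 1162 in wing discs) stood above *Cyp6v1* (657 and 761), whose transcript of 2993 bases is longer than that of *Cyp4p2* (1777). On that scale *Cyp9c1* (643) also stood above *Cyp4e2* (632) in wing discs, and *Cyp9c1* (357) above *Cyp6u1* (338) in eye discs. The next ranks per coding kilobase differed between the tissues. They were held by *Cyp6u1* (468) and *Cyp9c1* (397) in eye discs, and by *Cyp9c1* (716) and *Cyp310a1* (533) in wing discs. The 5 highest genes of a tissue held 59.7% of the summed mean normalized count of the family in eye discs and 54.2% in wing discs. Among the 12 highest genes of each tissue 9 were shared. *Cyp18a1*, *Cyp6a17* and *Cyp9f2* belonged to the 12 in eye discs alone, and *Cyp310a1*, *Cyp28d1* and *Cyp6d2* to those in wing discs alone. Of these, *Cyp6a17* is known for its role in temperature preference of the adult fly.

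By clan, the CYP3 genes held 54.8% of the summed level per coding kilobase of the family in eye discs and 57.4% in wing discs, and the CYP4 genes 39.2% and 36.7%. The mitochondrial clan held 3.47% and 3.85% and the CYP2 clan 2.48% and 2.06%. Of 38 CYP3 genes 23 were measured in eye discs and 28 in wing discs, and of 32 CYP4 genes 15 and 17. Of 9 mitochondrial members 7 were measured in each tissue, and of 4 CYP2 members 3. The families differed in how many of their members were found. All 6 Cyp9 genes were measured in wing discs and 5 of them in eye discs, whereas of the 6 Cyp313 genes none was measured in eye discs and only 1, *Cyp313b1*, in wing discs, at a mean normalized count of 31.6.

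Apart from *Cyp310a1*, which is described below and reached 787 in wing discs, the members chosen for a known role had mean normalized counts from 230 down to values below the minimum. *Cyp18a1* (FBgn0010383, chromosome X from 18688538 to 18693042) encodes the hydroxylase that inactivates ecdysteroids and was the highest CYP2 member, with a mean normalized count of 217 in eye discs and 199 in wing discs. Its level in ppm was 7.23 in eye discs and 5.82 in wing discs, a wing to eye ratio of 0.80. *Cyp301a1* (FBgn0033753, chromosome 2R from 12566185 to 12569061), which is needed for adult cuticle formation, had a mean normalized count of 131 in eye discs and 230 in wing discs and was the highest mitochondrial member. *Cyp303a1* (FBgn0001992, chromosome 2L from 16294183 to 16296969), needed for external sensory organs, was low in both, at 23.8 and 32.4. Of its exon bases 33.0% are also exon bases of *heix* on the opposite strand, which had mean normalized counts of 1529 and 1968. The paralogues *Cyp4g1* and *Cyp4g15* both encode enzymes of the decarbonylase type that makes hydrocarbons. *Cyp4g1* had a mean normalized count of 52.1 in eye discs and 19.9 in wing discs, and *Cyp4g15* of 68.0 and 5.42, so that both were higher in eye discs.

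Most members differed less than 2 times between the tissues. Of the 59 members measured in at least 1 tissue, 39 had levels in ppm within 2 times of each other, 15 were at least 2 times higher in wing discs and 5 at least 2 times higher in eye discs. Among the 15, *Cyp6d2* (ratio 2.002) and *Cyp304a1* (2.018) lay at the cut-off, and without a replicate error their place there is uncertain. Both also enter the counts of 8 and 7 members given below. Of all 10542 genes measured in at least 1 tissue, 6.24% were at least 2 times higher in wing discs and 14.3% in eye discs, against 25.4% and 8.47% of the P450 genes. A gene measured in only 1 tissue passes through its higher value, so the 44 members measured in both tissues are given as well. Among these, 8 were at least 2 times higher in wing discs and 2 in eye discs, beside 4.48% and 9.06% of the 9465 genes measured in both. At least 4 times higher in wing discs were 2 of the 59 members (background 2.42%), and in eye discs 4 (background 9.29%). Of the 44 measured in both, 1 was at least 4 times higher in wing discs and 1 in eye discs (background 1.13% and 4.49%). Of the 33 members with a mean of at least 50 in 1 tissue, 7 were at least 2 times higher in wing discs and 3 in eye discs, beside 4.9% and 11.2% of the 8843 genes past the same minimum. The median wing to eye ratio was 1.19 over the 59 members and 0.99 over all 10542 genes. Wing discs had the higher level in ppm for 38 of the 59 members (64.4%) and for 47.7% of all genes, and 11 of these 38 passed the minimum in wing discs alone. Over the 44 members measured in both tissues the median ratio was 1.12, and 27 of them (61.4%) were higher in wing discs. Over all genes measured in both tissues these values were 0.997 and 49.3%.

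**Figure D2:**
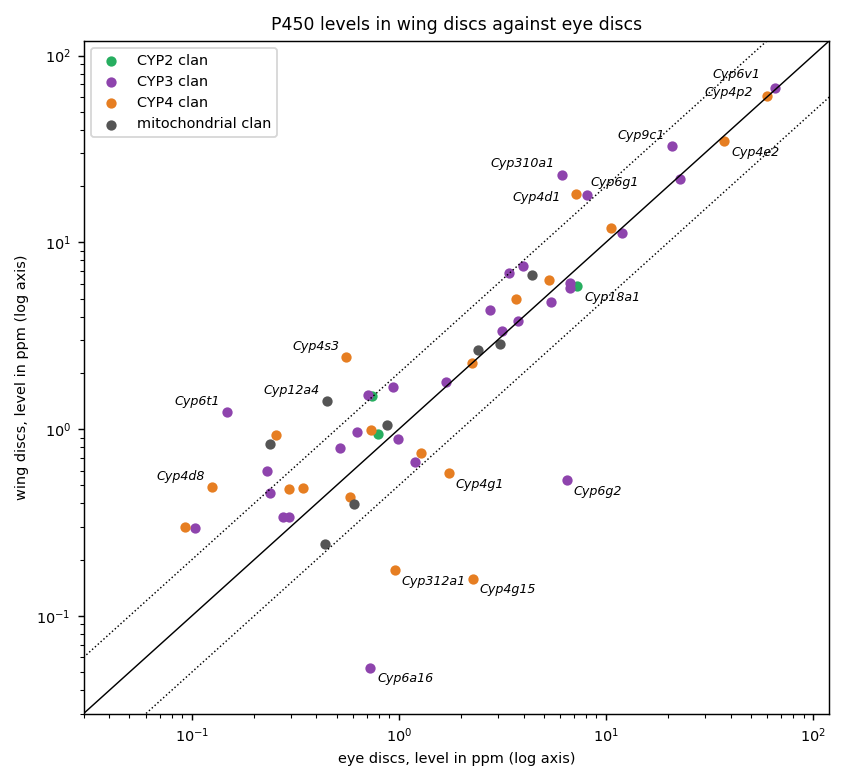
Level ppm of the 59 P450 genes in wing discs (vertical log axis) against eye discs (horizontal log axis), coloured by clan, with the line of equal levels (solid) and lines at 2 times higher and lower (dotted). *Cyp6v1*, *Cyp4p2* and *Cyp4e2* lie near the solid line, *Cyp310a1*, *Cyp4d1* and *Cyp6g1* above the upper dotted line, and in all 15 genes lie on or above the upper dotted line and 5 below the lower one.

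The P450 genes at least 2 times higher in wing discs came from all clans. They were 7 of 29 CYP3, 5 of 19 CYP4, 2 of 8 mitochondrial and 1 of 3 CYP2 genes measured in at least 1 tissue. Over the whole family they were 15 of 59. *Cyp310a1* (FBgn0032693, chromosome 2L from 18651058 to 18653010), a CYP3 gene, was the highest of them in wing discs, with a mean normalized count of 183 in eye discs and 787 in wing discs. Its level in ppm was 6.12 in eye discs and 23.0 in wing discs, a ratio of 3.77. The gene lies within the span of *MESR3* on the opposite strand, with no shared exon bases. *MESR3* was the lower in wing discs, with mean normalized counts of 2248 in eye discs and 1451 in wing discs. *Cyp4d1* (FBgn0005670, chromosome X from 2159145 to 2162180) had a mean normalized count of 214 in eye discs and 620 in wing discs, and a ratio of levels in ppm of 2.54. *Cyp6g1* (FBgn0025454, chromosome 2R from 12185667 to 12188431), whose overexpression makes flies resistant to DDT, had 243 and 613 with a ratio of 2.21. The largest ratios belonged to genes of lower level. *Cyp4s3* had a mean normalized count of 16.7 in eye discs and 83.2 in wing discs (ratio of levels in ppm 4.37), and *Cyp6t1* of 4.43 and 42.2 (8.37). Of the exon bases of *Cyp4s3*, 20.1% are shared with *Rab3-GEF* on the opposite strand, whose own mean normalized count was the higher in eye discs (199, beside 10.01 in wing discs). *Cyp12a4* and *Cyp12a5* are neighbouring mitochondrial members, and *Cyp12a4* can confer resistance to lufenuron. Their ratios were 3.13 and 3.49, at mean normalized counts of 13.5 and 7.16 in eye discs and 48.2 and 28.5 in wing discs. Of the genes at least 2 times higher in wing discs, *Cyp6t1*, *Cyp12a5*, *Cyp313b1*, *Cyp4d8*, *Cyp4e3*, *Cyp6a21* and *Cyp9b1* passed the minimum in wing discs alone. In the same pools the 4 fat body markers *Lsp1alpha*, *Lsp1beta*, *Lsp2* and *Fbp1* summed to 3517 ppm in eye discs and 8974 in wing discs, a ratio of 2.55. The tracheal markers *trh* (5.83 ppm in eye discs and 66.5 in wing discs) and *btl* (5.91 and 15.7) were higher in wing discs. The other tracheal markers, *serp* (276 and 243) and *verm* (627 and 505), were slightly lower there and make up most of the sum, so that the 4 together had a ratio of 0.91. Their part in the P450 levels was not tested.

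The 5 members higher in eye discs were 3 of 19 CYP4 and 2 of 29 CYP3 genes measured in at least 1 tissue. *Cyp6g2* (FBgn0033696, chromosome 2R from 12188338 to 12190377), another gene that can confer insecticide resistance when overexpressed, had a mean normalized count of 194 in eye discs and 18.2 in wing discs. Its level in ppm was 6.46 in eye discs and 0.53 in wing discs and thus 12.2 times higher in eye discs. *Cyp4g15* (FBgn0030304, chromosome X from 11477058 to 11483233), which is known from the larval nervous system, was 14.3 times higher in eye discs, at 2.27 ppm beside 0.16. *Cyp6a16* (mean normalized counts of 21.9 and 1.81), *Cyp312a1* (28.6 and 5.999) and *Cyp4g1* (FBgn0010019, chromosome X from 467057 to 469335) were 13.8, 5.43 and 2.99 times higher in eye discs. *Cyp4g1* is best known from oenocytes, where it makes the last step of cuticular hydrocarbon synthesis. The oenocyte marker *FarO*, the only one of 2 listed that matched a symbol, was low in both tissues, with mean normalized counts of 17.6 and 40.1.

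The P450 genes of ecdysteroid synthesis carry names of their own and are not among the 83 genes. Most of them were much higher in eye disc pools than in wing disc pools. The 4 genes that define the prothoracic gland, *phm*, *dib*, *sad* and *spok*, had mean normalized counts of 3546, 214, 3452 and 2121 in eye discs and of 311.1, 34.4, 290 and 116 in wing discs. Their summed level was 311.3 ppm in eye discs and 22.01 in wing discs, 14.1 times higher in eye discs. In eye discs this sum was close to that of all 83 members, 345 ppm, both without correction for length. *shd*, the last enzyme of the pathway, which acts in peripheral tissues, ran the other way with a mean normalized count of 41.5 in eye discs and 161 in wing discs, and *spo* was near the floor with 2.81 and 2.05. The 3 glial markers *repo*, *wrapper* and *moody* summed to 78.4 ppm in eye discs and 12.4 in wing discs (6.32 times higher in eye discs), and the 4 haemocyte markers to 294 and 91.6 (3.21 times higher). With 1 pooled value for each tissue, any gene higher in eye discs is higher together with these markers, and also with the eye disc and antennal markers given below. The part of eye and antennal disc cells and of gland, glial and blood cells in the levels of *Cyp6g2*, *Cyp4g15*, *Cyp6a16*, *Cyp312a1* and *Cyp4g1* was not tested. Of these genes *Cyp4g15*, *Cyp6a16* and *Cyp312a1* passed the minimum in eye discs alone.

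**Figure D3:**
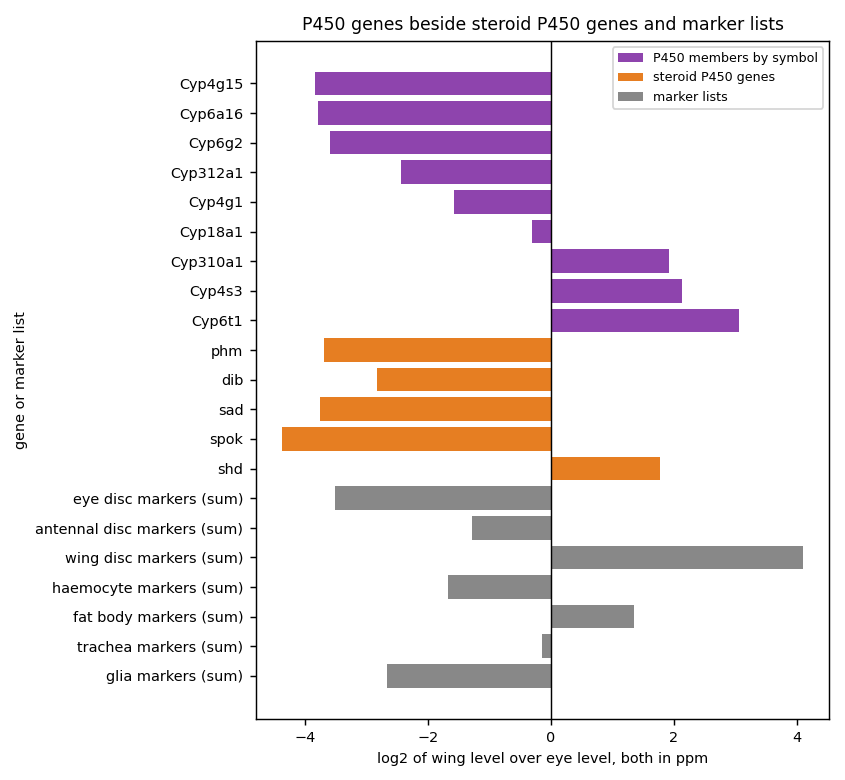
Log2 of the wing level over the eye level, both ppm, for 9 P450 genes of the family (purple), 5 steroid P450 genes with other names (orange) and the summed level of 7 marker lists (grey), with no error available. *Cyp4g15*, *Cyp6a16* and *Cyp6g2* lie on the same side as *phm*, *dib*, *sad*, *spok* and the eye disc, antennal disc, glial and haemocyte markers. *Cyp6t1*, *Cyp4s3* and *Cyp310a1* lie on the side of the wing disc and fat body markers, as does the steroid P450 gene *shd*. The sum of the tracheal markers lies slightly to the eye side.

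The labels of the tissues fitted their markers. The 7 eye disc regulators were each at least 4.39 times higher in eye discs and 11.5 times as a sum, and the 5 wing disc regulators each at least 4.64 times higher in wing discs and 17.2 times as a sum. The antennal marker *Dll*, which wing discs express as well, had a ratio of 0.79, and *danr* was 51.6 times higher in eye discs.

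With a gap of at most 20 kb between neighbours, 48 of the 83 P450 genes fell into 17 clusters of 2 to 9 genes, and 35 lay in none. How far the levels of neighbours differed varied between clusters. The clusters that hold *Cyp12d1-d* and *Cyp308a1* had a lowest level of 0 in both tissues, so that no ratio was formed for them. In 9 of the other clusters the highest level per coding kilobase was at least 5 times the lowest in both tissues, and in 2 it was less than 2 times the lowest in both. These were *Cyp9f3* and *Cyp9f2* (1.79 times in eye discs and 1.52 in wing discs) and *Cyp12a5* and *Cyp12a4* (1.88 and 1.69). In the largest, on chromosome 2R from 14871366 to 14903095, *Cyp6a17* held 67.2% of the summed level per coding kilobase in eye discs and 64.6% in wing discs. This cluster held 9 genes, with 3 measured in eye discs and 5 in wing discs. *Cyp6a20*, known for its effect on male aggression, had mean normalized counts of 8.67 and 2.23 there, and *Cyp6a8*, a fatty acid hydroxylase, of 2.66 and 7.74. In the Cyp4p cluster on the same arm, the level per coding kilobase of *Cyp4p2* was 261 times that of *Cyp4p3* in eye discs and 313.4 times in wing discs, with *Cyp4p1* between them at 206 and 264. The 3 genes lie within the span of *hig* on the opposite strand (mean normalized counts of 677 and 97.6) and share no exon bases with it. *Cyp4e2* held 95.8% of the summed level per coding kilobase of its cluster with *Cyp4e1* and *Cyp4ad1* in eye discs and 96.6% in wing discs.

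**Figure D4:**
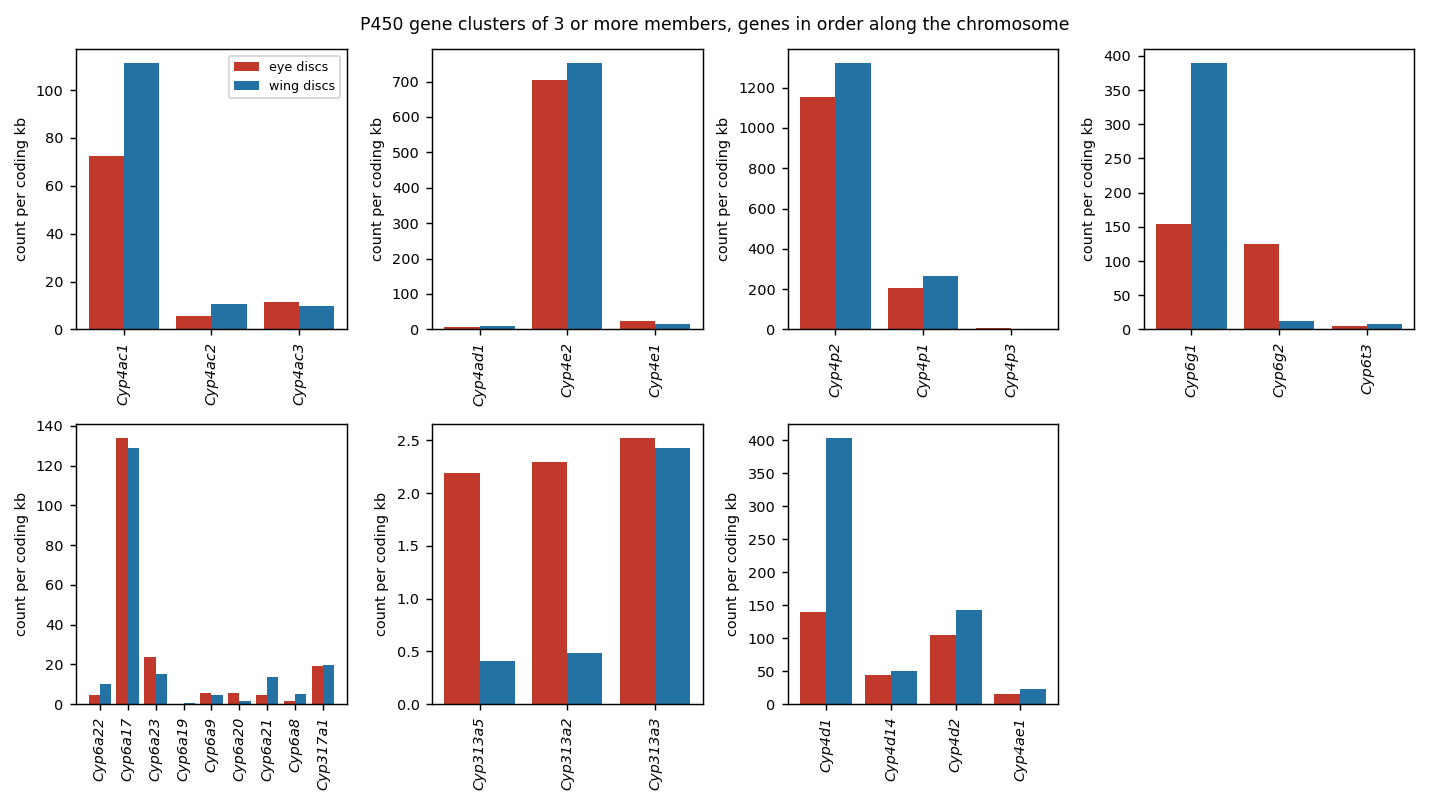
Mean normalized count per kilobase of coding length in eye discs (red) and wing discs (blue) for the 7 clusters with at least 3 P450 genes, with the genes in chromosomal order and a separate linear axis from 0 in each panel. A single gene stands out in the clusters of *Cyp4ac1*, *Cyp4e2*, *Cyp4p2* and *Cyp6a17*, and *Cyp6g1* and *Cyp6g2* differ between the tissues in opposite directions.

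Neighbours did not always share the tissue in which they were higher. *Cyp6g1* and *Cyp6g2* lie next to each other on opposite strands and share 94 exon bases, and *Cyp6g1* was 2.21 times higher in wing discs while *Cyp6g2* was 12.2 times higher in eye discs. Their neighbour *Cyp6t3*, which has a role in ecdysone synthesis, was near the minimum in both tissues, with mean normalized counts of 8.23 and 11.5. On the X chromosome *Cyp4d1*, *Cyp4d14*, *Cyp4d2* and *Cyp4ae1* were all measured in both tissues. The wing to eye ratio was 2.54 for *Cyp4d1* and 0.998, 1.19 and 1.35 for its neighbours. The exons of these 3 neighbours are overlapped by antisense RNAs of the opposite strand, for 96.2%, 98.7% and 88.3% of their bases. The antisense RNA over *Cyp4d14* had mean normalized counts of 159 and 154, and the one over *Cyp4d2* and *Cyp4ae1* of 631 and 782, more than *Cyp4d2* itself (158 and 215) and *Cyp4ae1* (21.99 and 33.8). The counting is not stated to use strand, so reads of *Cyp4d14*, *Cyp4d2* and *Cyp4ae1* and of these antisense RNAs cannot be told apart with certainty. The same holds for *Cyp9c1*, of whose exon bases 98.2% lie within an antisense RNA of low level (mean normalized counts of 28.6 and 76.7), and for *Cyp6d2*, which shares 51.0% with *nsr*. Of the 83 members, 21 share at least 1 exon base with another gene of the tables, and 5 share at least 50% of their exon bases.

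The remaining 24 members were below the minimum in both tissues, 13 of them in the CYP4 clan, 9 in the CYP3 clan and 1 in each of the other clans. *Cyp308a1*, *Cyp4d21* and *Cyp12d1-d* had a mean normalized count of 0 in both tissues, and *Cyp6a18* of 0 in eye discs and 0.12 in wing discs. *Cyp12d1-d* and *Cyp12d1-p* are nearly identical copies, and the division of reads between them is uncertain. *Cyp12d1-p* had mean normalized counts of 26.4 and 35.8. Just inside the minimum in eye discs lay *Cyp4ad1* (10.3), *Cyp12b2* (13.1) and *Cyp12a4* (13.5), and just outside *Cyp4ac2* (8.82), *Cyp6a2* (8.82) and *Cyp6a20* (8.67), by their mean normalized counts. In wing discs *Cyp9b1* (10.1), *Cyp4e3* (10.2) and *Cyp6a2* (11.5) lay just inside and *Cyp4d20* (9.50), *Cyp12b2* (8.25) and *Cyp305a1* (7.89) just outside. Measured in only 1 tissue were 4 members in eye discs and 11 in wing discs.

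Most genes that serve P450 enzymes were found at similar levels in both tissues. *Cpr*, the reductase that passes electrons to P450 enzymes of the endoplasmic reticulum, had a mean normalized count of 3600 in eye discs and 4637 in wing discs, and *Cyt-b5* of 4045 and 4009. The mitochondrial partners *dare* (689 and 765), *Fdx2* (409 and 542) and *Fdx1* (205 and 267) were lower. These 5 genes had wing to eye ratios of levels in ppm between 0.87 and 1.16, whereas *Cyt-b5-r*, a cytochrome b5-related gene, was low and had a ratio of 3.14. The 6 genes listed as regulators of the response to foreign compounds, some of them by homology with other animals, had ratios between 0.80 and 1.001. Among them, *cnc*, the fly homologue of Nrf2, had mean normalized counts of 5838 and 5744, *tgo* of 3289 and 3612, *maf-S* of 1496 and 1517 and *ss*, the homologue of the aryl hydrocarbon receptor, of 1390 and 1278.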

How the data were processed

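Reads of 12 libraries had been quantified by the authors with Salmon against BDGP6.22 (per the paper's methods), imported with tximeta and normalized with DESeq2. Their versions, Salmon 1.1.0 and DESeq2 1.30.0, are listed by the submitters in the notes on processing. The signal used here is the deposited mean normalized count, which the authors scaled by size factors and averaged over the 6 libraries of a tissue. Of each deposited table the 5 columns of the authors' own comparison (log2 fold change, its standard error, statistic, p-value and adjusted p) were not used. Values of single libraries were not used here, and both their depth and the precision of the means are unknown.

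Gene positions, exons and coding lengths (longest coding sequence) were read from the BDGP6.54 annotation, which has the coordinates of the same assembly release. Gene identifiers matched for 82 members, and *Cyp6a21* was matched by symbol. Python 3.11.15, numpy 2.4.6, pandas 2.3.3 and matplotlib 3.10.9 were used.

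The named genes are the 12 highest members of each tissue, members with a mean of at least 50 in 1 tissue and a ratio of at least 4, the 3 members on each side of the minimum, up to 4 genes of each other list and 6 members with known roles. Other members were named after their values were seen. The members and lists were chosen with earlier results of these data known. Alternatives were other minimum counts, scalings between tables, P450 genes with other symbols and length corrections.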

Additional observations from a re-analysis of the deposited data

How the results depend on the processing

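The count of measured P450 genes stayed within 1.5 times of the value given at a minimum of 5 (61 in eye discs, 65 in wing discs) or 20 (40 and 43), and with the P450 genes of other names added (53 and 60). The number at least 2 times higher in wing discs was 15 with ratios centred on the median gene (a shift too small to change a ratio of 2 in direction) and 18 with deposited means left unscaled, and the number higher in eye discs was 5 in both settings. Over the 33 members with a mean of at least 50 in 1 tissue these numbers were 7 and 3, and over members measured in both tissues, a setting chosen after seeing the data, 8 and 2. Fewer genes enter both settings by construction. The 5 highest genes held 59.5% (eye) and 53.8% (wing) of the family per coding kilobase. Per kilobase of the longest transcript, a setting chosen after seeing the data, they held 57.6% and 52.5%. No paired analysis was possible because the deposited means pool the libraries, and for the same reason no replicate could be left out and no spread between libraries could be given. Low means rest on few reads, and ratios of genes near the minimum are the least certain.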
